A study of Caenorhabditis elegans with 12 samples.

Results

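The let-7 U13A mutant of the nematode Caenorhabditis elegans and its control, a strain with a marked lin-41 allele, were compared by ribosome profiling, which sequences the short stretches of mRNA that translating ribosomes protect. The comparison used the 6 libraries whose labels name the mutant strain VT3878 or the control strain DG3913, out of 12 libraries in the series. The 3 libraries of let7_U13A came from animals of genotype lin-41(tn1541ma480);let-7(ma432), and the 3 libraries of control_for_U13A came from lin-41(tn1541) animals. Both groups were whole animals fed E. coli HB101 and collected in the mid-L4 larval stage, 45 h after feeding at 20 °C. The labels describe the mutant as one in which lin-41's downstream effects are kept out, and the control as the wild type for it. Since the strains carry different lin-41 alleles, the let-7 and lin-41 alleles cannot be told apart here. U13A names a base change in let-7 outside its seed, the stretch that leads target pairing. The other pair of the series, U18A, set let-7(ma435) with the transgene maIs105 against maIs105 and is used below only to show where the U13A pair differed.

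As background, let-7 is a microRNA that rises late in larval life and represses lin-41, an RNA-binding protein gene, and other genes that hold back the switch to adult fates. In the hypodermis this switch stops seam cell divisions and brings adult collagens into the cuticle, which is rebuilt at each molt by bursts of secretion. In the germline of a hermaphrodite at this age, sperm are made first and oocyte genes follow.

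Total counts were 8405704, 12726449 and 12022935 in control replicates A, B and C, and 13359763, 26975815 and 18439416 in the mutant ones, so every mutant library was deeper than every control library. Pearson correlations of log2 CPM (counts scaled to library size) across genes were 0.985 to 0.992 between replicates. In a principal component analysis the mutant and control libraries separated on the leading axis (45.9% of variance). The next axis held 24.5% and varied inside both groups, with control replicate A and mutant replicate C at one end and control replicate C and mutant replicate B at the other. Nothing in the labels says whether replicates were separate cultures, so p-values measure the spread between these libraries. Defining markers of muscle, pharynx, intestine, neurons and germline were all read, as were 33 of 37 sperm markers. Of 6 embryo markers, 4 had at most 3 counts in every library and 2 of these had none. In whole animals, fewer cells of a type and less RNA per cell cannot be told apart, and a footprint count mixes how much mRNA there is with how often it is translated.

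The quasi-likelihood test of edgeR, with Benjamini-Hochberg adjusted p below 0.05, called 726 of 12874 genes (5.64%). These calls comprised 395 genes higher in the mutant (3.07%) and 331 lower (2.57%). CPM of all 3 mutant libraries lay above all 3 control libraries for 11.3% of genes and below them for another 11.3%. The count rested on single libraries: 354 genes were called without control replicate B and 295 without mutant replicate A. Of the calls, 141 higher and 99 lower held whichever of the 6 libraries was left out. Among 139 gene-name classes with at least 8 members tested, 74 had no called member. Counting classes with at least 3 such calls, those with the largest share called higher were puf (3 of 8), dod (3 of 10) and ugt (10 of 51), while those with the largest share called lower were abu (10 of 13), nspa (4 of 10) and nas (5 of 25). In every library, 4 of the 13 abu and 8 of the 10 nspa genes had counts within 5% of another gene's. Their calls may thus count 1 signal more than once.

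**Figure D1:**
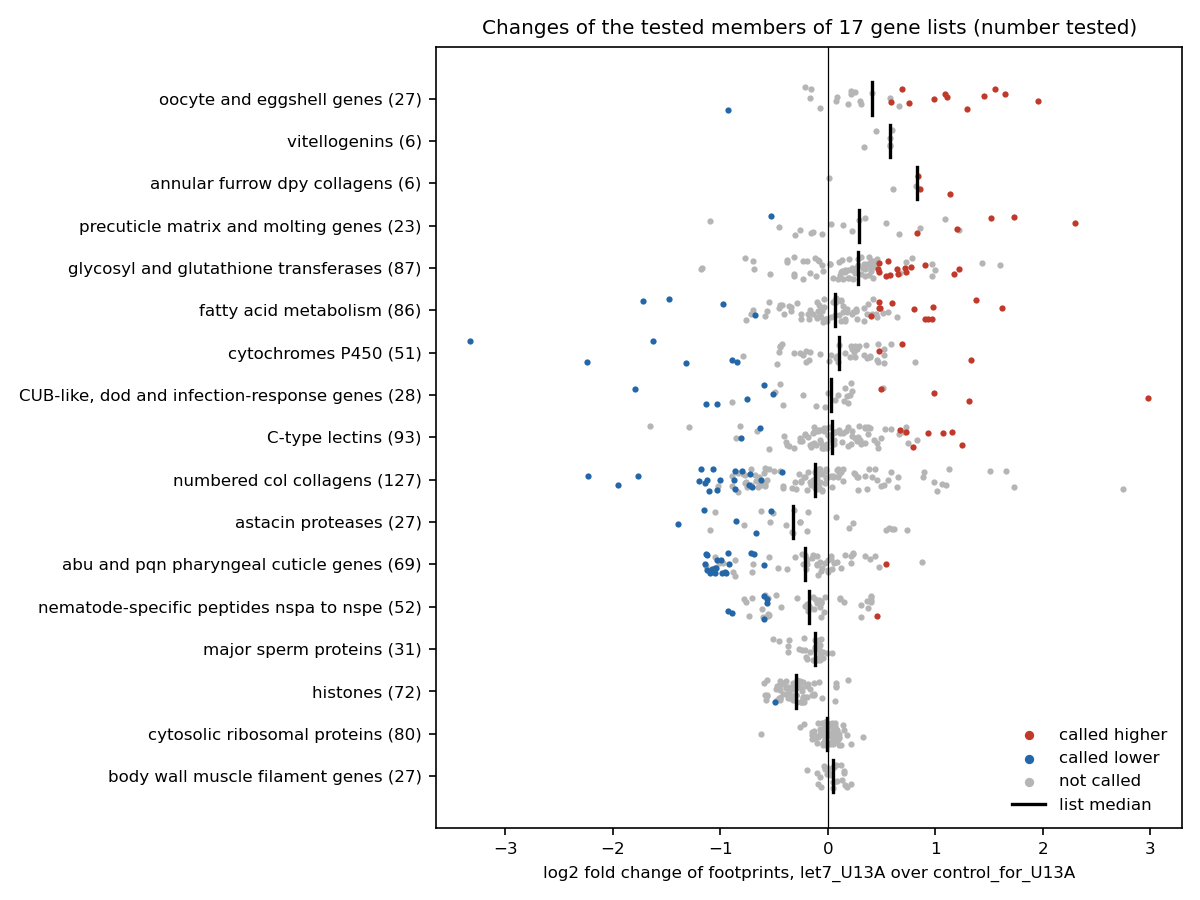
Log2 fold change of footprints (let7_U13A over control_for_U13A, horizontal axis) for every tested member of 17 gene lists, 1 point per gene, red where called higher, blue where called lower and grey otherwise, with a bar at the list median. The called oocyte and eggshell genes lie to the right except for 1, all 20 called col collagens lie to the left, and no ribosomal protein or muscle gene is called.

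Of 27 listed genes of the growing oocyte and its future eggshell, 11 rose in the mutant (40.7%) against 3.07% of all genes, 1 fell, 15 were not called, and the median log2 fold change was 0.41 against -0.00 over all genes. The 11 were the eggshell proteoglycan genes cpg-1 and cpg-2, the eggshell chitin-binding protein gene cbd-1, the egg surface receptor genes egg-1 and egg-2, the yolk receptor gene rme-2, the zinc-finger genes oma-1 and oma-2 of maturing oocytes, and the Pumilio-family genes puf-3, puf-5 and puf-11. rme-2 stood at 18.3, 16 and 12.2 CPM in the control libraries and at 41.9, 29.6 and 42.1 CPM in the mutant ones. The groups of rme-2 did not overlap (log2 fold change 1.29, SE 0.18, edgeR adjusted p 0.00148). egg-1 was read at 6.87, 5.67 and 3.71 CPM in the control and 15.3, 12.2 and 16.3 CPM in the mutant. Each mutant library of egg-1 exceeded each control library (log2 fold change 1.46, SE 0.20, edgeR adjusted p 0.00113). cpg-1 had 22.6, 22.4 and 14.3 CPM in the control and 58.2, 43.9 and 71.2 CPM in the mutant (log2 fold change 1.56, SE 0.22, edgeR adjusted p 0.00620).

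The other 8 rises ran from 0.59 for puf-11 to 1.95 for oma-2, which was read at no more than 3.66 CPM in any library. Of the 11 calls, 9 held in all 6 leave-one-out fits, each made without 1 library. Those of cbd-1 (1.65) and oma-1 (0.75) were lost in 2 and 4 of those fits, with edgeR adjusted p up to 0.0746 and 0.165. For all 11 genes the control libraries lay below the other 9 libraries of the series, while the mutant lay within their range. All 11 also rose in the U18A pair, where the list median was 0.83, and none of these 11 changes differed detectably between the pairs. The member that fell was pqn-74, a glutamine-rich protein gene that also stands in the pharyngeal list (log2 fold change -0.93, SE 0.14, edgeR adjusted p 0.00175).

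The 6 vitellogenin genes, which encode the yolk proteins made in the adult intestine, all had positive changes with a median of 0.58, but none was called. Their summed level was 42150, 34960 and 22300 CPM in the control libraries and 48660, 39390 and 50730 CPM in the mutant ones, so the groups overlapped. The counts of vit-3 and vit-4 lay within 5% of each other, so these 2 genes cannot be told apart. meg-1, a germ granule gene of the early embryo, had 0.123, 0.411 and 0.0741 CPM in the control and 0.827, 1.08 and 1.28 CPM in the mutant. meg-1 was called higher (log2 fold change 2.33, SE 0.50, edgeR adjusted p 0.0160), at the edge of what these depths can measure, and the call was lost without control replicate C (adjusted p 0.0707).

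Other germline lists held few calls or none. Of 31 major sperm protein genes, 30 had negative changes and none was called, with a list median of -0.12. Their summed level was 26730, 25360 and 18890 CPM in the control libraries and 18390, 18710 and 25230 CPM in the mutant ones, so control replicate C and mutant replicate C each lay apart from the rest of their group. None of 25 meiotic chromosome genes, 15 genes of germline stem cells and meiotic entry or 30 cell cycle genes was called. Among 72 histone genes the median was -0.30 and 67 changes were negative, with 1 call, that of the linker histone gene his-24 (-0.49, edgeR adjusted p 0.0476), which was lost in 4 of the 6 leave-one-out fits (adjusted p up to 0.231). The histone median was negative in every alternative, from -0.46 to -0.25, but 40 of the histone genes share near-equal counts with another gene. The part of germline stage in the rise of the oocyte genes was not tested.

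**Figure D2:**
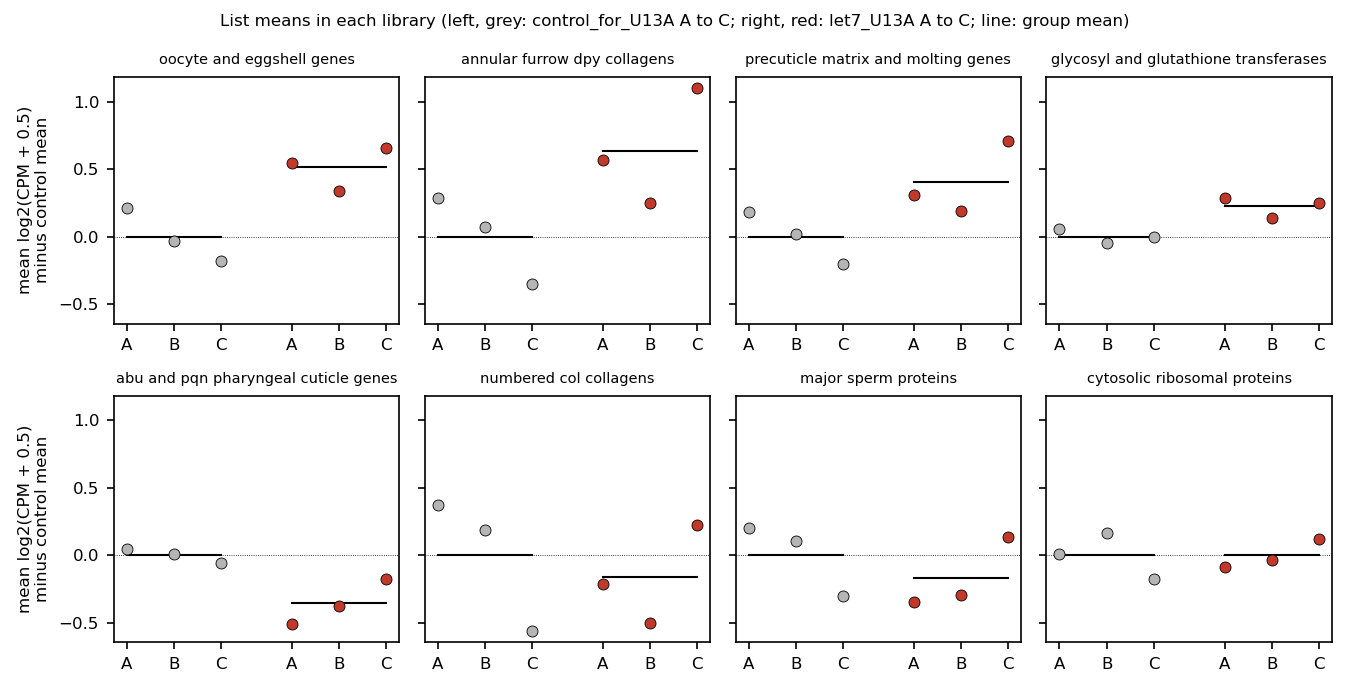
Mean of log2(CPM + 0.5) over the tested members of 8 lists, less the control mean, in each library (grey, control_for_U13A A to C; red, let7_U13A A to C; line, group mean). The oocyte list separates the groups (at most 0.21 in the control, at least 0.34 in the mutant), whereas the col list spreads from -0.56 to 0.38 inside the control.

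The cuticle genes moved in different directions by type. As background, 6 collagens, encoded by dpy-2, dpy-3, dpy-7, dpy-8, dpy-9 and dpy-10, mark the annular furrows of the cuticle and are made early in each molt. All 6 fitted changes were positive with a median of 0.83, and 3 were called, while that of dpy-3 was near 0 (0.01) and turned negative without control replicate C (-0.14), without mutant replicate C (-0.50) and with the replicate block (-0.07). dpy-10 was measured at 7.12, 6.25 and 4.52 CPM in the control libraries and at 12.9, 9.37 and 16.6 CPM in the mutant libraries. The groups of dpy-10 did not overlap (log2 fold change 1.13, SE 0.23, edgeR adjusted p 0.0183). dpy-7 (0.86, edgeR adjusted p 0.0475) and dpy-2 (0.84, edgeR adjusted p 0.0220) were the other 2. No furrow gene was called without control replicate B, and 1 was called without control replicate C or without mutant replicate A (adjusted p up to 0.0823 for dpy-10, 0.162 for dpy-7 and 0.122 for dpy-2). In all 3 genes the control lay below the other 9 libraries. The changes of all 3 differed from those in the U18A pair, where each fell and the list median was -1.18.

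The precuticle is the matrix that precedes a new cuticle. Of 23 precuticle and molting genes tested 5 rose (21.7%, against 3.07% of all genes) and 1 fell (4.35%, against 2.57%), with 15 positive changes and a median of 0.29 that ran from 0.03 to 0.42 in the alternatives. let-653, which encodes a mucin-like matrix protein, had 4.79, 2.55 and 2.37 CPM in the control and 8.79, 8.47 and 13.5 CPM in the mutant (log2 fold change 1.73, SE 0.28, edgeR adjusted p 0.00575). sym-1, which encodes a leucine-rich repeat protein of the apical matrix, had 22.3, 20.5 and 16.9 CPM in the control and 54.6, 44.5 and 70.7 CPM in the mutant (log2 fold change 1.51, SE 0.17, edgeR adjusted p 5.24e-04). Neither gene overlapped between the groups, and both calls held in all 6 leave-one-out fits, as did that of the fibrillin-like gene fbn-1. The other members called higher were the zona pellucida-domain gene noah-1 and the leucine-rich repeat gene egg-6 (0.83), and both calls were lost without control replicate B and without mutant replicate A (adjusted p up to 0.0817 and 0.103). The astacin gene nas-7 was the member that fell (-0.53). The call was lost in 4 of the 6 leave-one-out fits (adjusted p up to 0.136). fbn-1, let-653, sym-1 and noah-1 all fell in the U18A pair, where the list median was -1.02, and all 4 changes differed between the pairs. A molting regulator, mlt-4, an ankyrin-repeat gene, was read at 1.23, 1.64 and 1.26 CPM in the control and 3.53, 3.78 and 3.43 CPM in the mutant. It rose by 1.37 on the log2 scale (SE 0.23, edgeR adjusted p 0.00363), and the other 9 tested molting regulators were not called.

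The numbered col genes, most of which encode structural cuticle collagens, gave falls only. Of 127 tested, 20 fell (15.7%) against 2.57% of all genes, and none rose. col-120 was read at 22.9, 32.2 and 22.7 CPM in the control libraries and 4.66, 6.63 and 4.94 CPM in the mutant ones (log2 fold change -2.24, SE 0.18, edgeR adjusted p 1.99e-05). col-60 went from 23.7, 30.4 and 20.2 CPM to 7.14, 7.13 and 7.50 CPM (log2 fold change -1.77, SE 0.16, edgeR adjusted p 2.86e-05). The groups lay well apart in both genes, and the mutant libraries were the lowest of the series. In 16 of the 20 genes the mutant lay outside the range of the other 9 libraries and in 2 the control did. In the U18A pair 19 of the 20 were also called lower, and 4 of the 20 changes differed between the pairs, among them those of col-120, col-88 and col-60. Within the family, a list of 7 adult collagen genes had 4 falls (57.1%) and no rise. Its median was -0.72 and lay between -0.95 and -0.65 in the alternatives. Of the 4 calls, 2 held in all 6 leave-one-out fits, and all 4 genes were also called lower in the U18A pair.

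The 20 calls did not extend to the col family as a whole. The median over 127 genes was -0.12 and ran from -0.43 to 0.07 across the alternatives. Summed over the family, the level was 77520, 64670 and 36100 CPM in the control libraries and 47600, 39220 and 70560 CPM in the mutant ones, with control replicate C and mutant replicate C each apart from its group. The most positive change was that of col-50, at 2.94, 2.47 and 0.889 CPM in the control and 17.3, 4.54 and 19.2 CPM in the mutant, which did not pass the threshold (log2 fold change 2.74, edgeR adjusted p 0.161). The number of col genes called lower was 7 without control replicate B, 6 without mutant replicate A, 7 without mutant replicate B and 33 without control replicate C. Of the 20 calls 6 held in all 6 such fits, those of col-120 and col-60 included. That of col-88, a fall of 1.96, held in 2 of them (adjusted p up to 0.108), and that of col-104 (-1.2) also in 2 (adjusted p up to 0.127).

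Among 15 other collagen genes that set body shape, lon-3 rose (0.54) and rol-1 (-0.98) and dpy-5 (-0.72) fell, each a call lost in at least 3 of the 6 leave-one-out fits (adjusted p up to 0.122, 0.0841 and 0.141). None of 14 collagen-processing enzyme genes and none of 15 basement membrane genes was called. Of the latter 15 changes 14 were positive, with a median of 0.17 that ran from -0.005 to 0.37 in the alternatives. The summed level of the basement membrane genes overlapped between the groups (5524, 4322 and 2941 CPM in the control, 4841, 3539 and 5966 CPM in the mutant). Astacin metalloproteases, some of which act in molting and collagen processing, had 5 falls (18.5%, against 2.57% of all genes) and no rise among 27 tested, with a median of -0.33. nas-14 had 3.80, 3.86 and 5.63 CPM in the control and 1.80, 2.23 and 1.92 CPM in the mutant (log2 fold change -1.15, SE 0.23, edgeR adjusted p 0.00906). It did not overlap between the groups and was the 1 astacin call that held in all 6 leave-one-out fits. Without control replicate B 2 astacin genes were called, and without mutant replicate A or B 1 was.

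**Figure D3:**
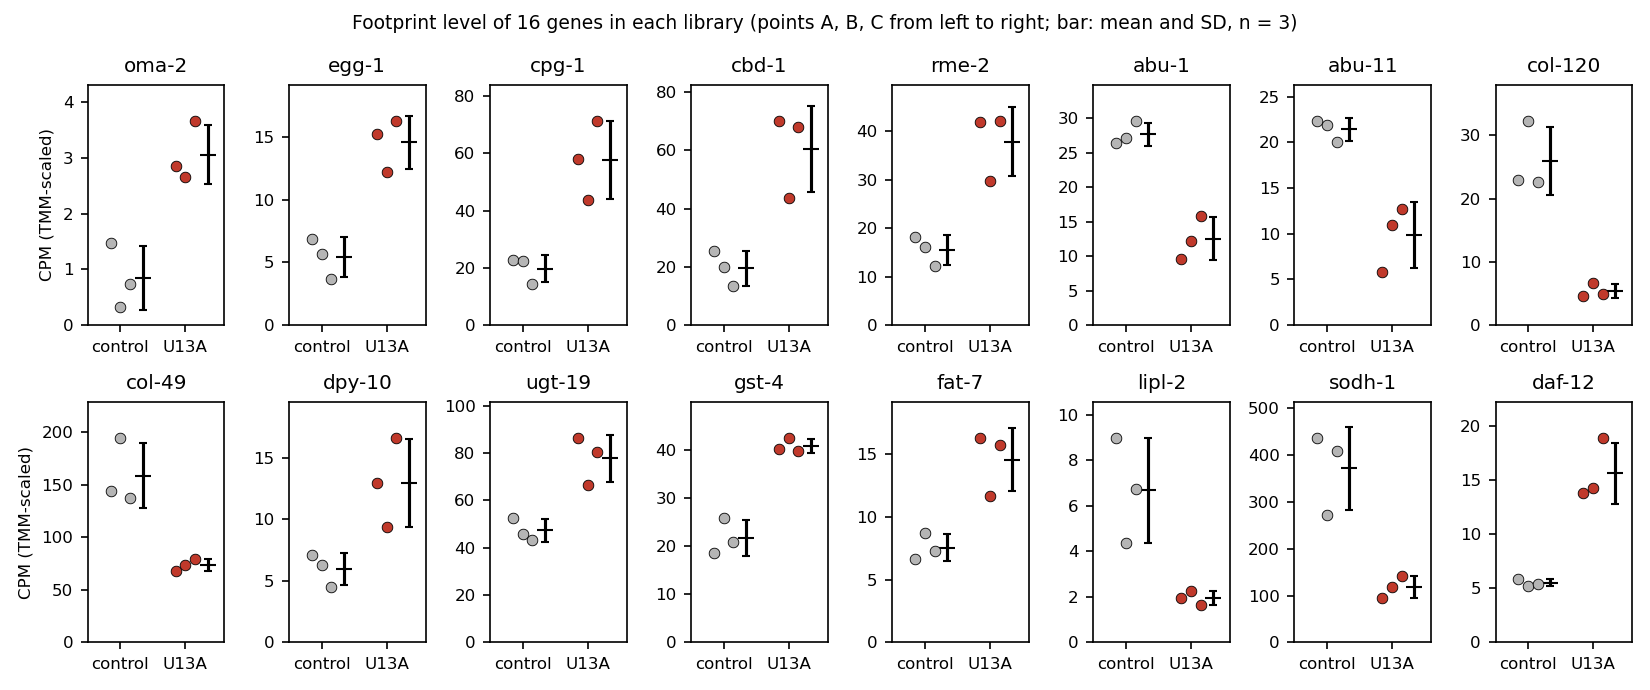
CPM (TMM-scaled, linear axes from 0) of 16 genes in each library of the control (grey) and the mutant (red), with the mean and SD of each group (n = 3) beside the points. In each panel the 3 mutant points lie on 1 side of the 3 control points.

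The abu and pqn genes encode glutamine-rich secreted proteins, many of them made by the pharynx for its cuticle lining. Of 69 tested, 19 fell (27.5%, against 2.57% of all genes) and 1 rose (1.45%, against 3.07%). The fall was densest in the abu class, in which all 13 genes had mutant libraries below every control library, against 11.3% of all genes, and 10 were called. Of these 13, 4 had near-equal counts with another gene, so not all are separate signals. Summed over the 13, the level was 394, 385.3 and 392.5 CPM in the control and 148, 197.4 and 269.4 CPM in the mutant. Changes in this class ran from -1.14 to -0.46 with a median of -0.99. abu-11 was read at 22.3, 21.9 and 20.0 CPM in the control and 5.86, 11 and 12.7 CPM in the mutant (log2 fold change -1.09, SE 0.23, edgeR adjusted p 0.0246). The call was lost in 4 of the 6 leave-one-out fits (adjusted p up to 0.101).

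pqn-29 had 4.91, 6.91 and 8.60 CPM in the control and 3.16, 3.06 and 3.66 CPM in the mutant (log2 fold change -1.08, SE 0.21, edgeR adjusted p 0.00836). It did not overlap between the groups and its call held in all 6 leave-one-out fits. abu-1 and pqn-2 each changed by -1.14, but their counts were nearly equal in every library, so they count as 1 signal at most. In 14 of the 20 called genes the mutant lay outside the range of the other 9 libraries. The list median was -0.08 in the U18A pair, where 1 of the 20 was called in the same direction and 1 in the opposite one. The latter was pqn-47, the list's single rise (0.54, edgeR adjusted p 0.0388), lost in 4 of the 6 leave-one-out fits (adjusted p up to 0.181). The number of list members called lower was 10 without control replicate B, 12 without mutant replicate A and 10 without mutant replicate B. Of 15 pharynx markers 2 fell, the pharyngeal gland genes phat-1 (-0.95) and phat-4 (-0.50), both lost in at least 4 of the 6 leave-one-out fits (adjusted p up to 0.155 and 0.224). The pharyngeal muscle markers myo-1, myo-2 and tnc-2 together took 274 to 349 CPM in the control and 278 to 314 in the mutant, without TMM scaling, and none was called.

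Hedgehog-related and patched-related proteins are in this species secreted or displayed largely by epithelia. Their genes gave 2 rises (3.39%) and 4 falls (6.78%) among 59 tested, shares to be read against 3.07% and 2.57% of all genes. wrt-8 was read at 26.8, 25.16 and 25.7 CPM in the control and 11.1, 10.9 and 13.4 CPM in the mutant, with little spread in either group. Its log2 fold change was -1.14 (SE 0.12, edgeR adjusted p 1.36e-04). ptr-10, a patched-related gene, had at most 1.1 CPM in the control and at least 2.41 CPM in the mutant (log2 fold change 2.15, SE 0.36, edgeR adjusted p 0.00369). grd-10 rose by 1.08, a call lost without control replicate B (adjusted p 0.0557). The other falls were those of ptr-23 (-0.47), ptr-19 (-1.29) and grl-6 (-1.99), the last 2 of genes read below 2 CPM, and each was lost in at least 4 of the 6 leave-one-out fits (adjusted p up to 0.146, 0.191 and 0.147).

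The phase II detoxification enzymes, UDP-glucuronosyltransferases and glutathione S-transferases, join sugar or glutathione to small molecules. Of 87 tested, 14 rose (16.1%) against 3.07% of all genes, 73 were not called and none fell, with 66 positive changes and a median of 0.28, which stayed between 0.27 and 0.33 in the alternatives. The summed level was 2410, 2426 and 2345 CPM in the control and 3115, 2750 and 2979 CPM in the mutant, without overlap. ugt-19 was measured at 52.6, 46.0 and 43.4 CPM in the control and at 86.2, 66.6 and 80.5 CPM in the mutant (log2 fold change 0.72, SE 0.12, edgeR adjusted p 0.00400). gst-4, a standard reporter of oxidative stress that overlaps dhs-12 on the same strand, had 18.5, 25.7 and 20.8 CPM in the control and 40.1, 42.3 and 39.8 CPM in the mutant (log2 fold change 0.91, SE 0.13, edgeR adjusted p 0.00108). These 2 calls held in all 6 leave-one-out fits, and the groups did not overlap in either gene. The list had 4 members called higher without control replicate B and 4 without mutant replicate A. The largest changes among the called members, of ugt-32 (1.22) and ugt-11 (1.17), came from genes read below 3 CPM. The calls of these genes were lost in 5 and 4 of the 6 leave-one-out fits (adjusted p up to 0.117 and 0.111). The largest rise and the largest fall of the whole list belonged to members that were not called. In the U18A pair 2 of the 14 rose, 1 fell and the list median was 0.03.

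**Figure D4:**
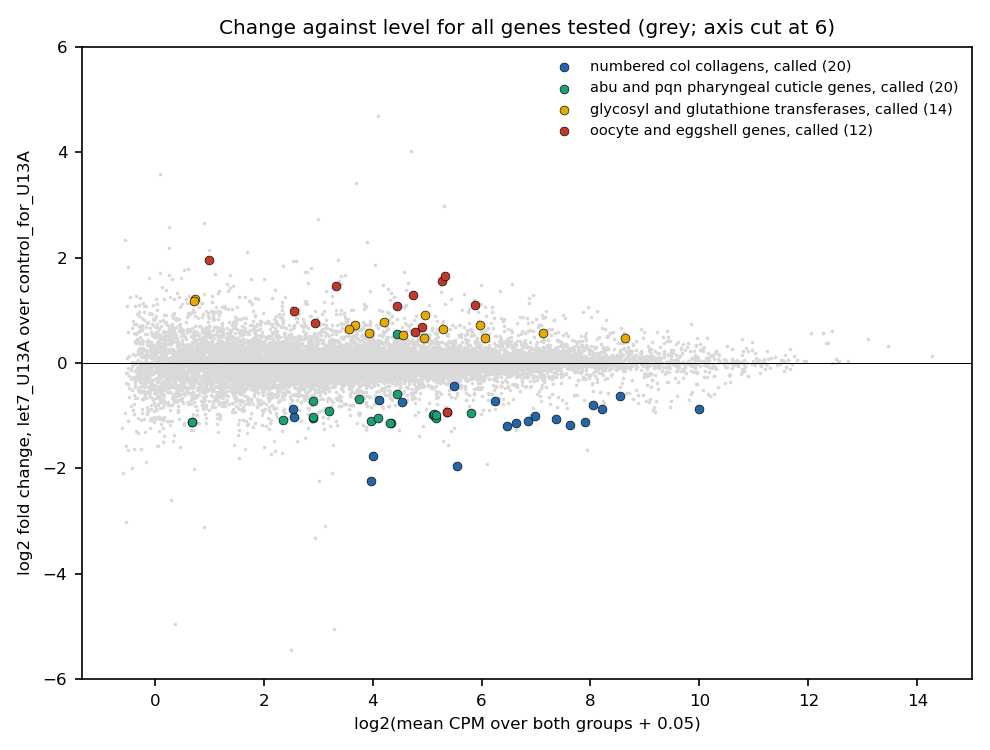
Log2 fold change (let7_U13A over control_for_U13A) against log2(mean CPM + 0.05) for all genes tested (grey), with the called members of 4 lists in colour. Among the 4 lists the called col genes reach the highest levels, the called transferases lie between 0.47 and 1.22, and srw-85 and F57A10.2, which have no count in 1 group, fall outside the axis.

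Among cytochromes P450, the phase I oxidases, 3 of 51 tested rose (5.88%, against 3.07% of all genes) and 6 fell (11.8%, against 2.57%), with 31 positive changes and a median of 0.10. cyp-14A5 had 13.6, 10.8 and 10.1 CPM in the control and 30.7, 25.9 and 29.4 CPM in the mutant (log2 fold change 1.33, SE 0.14, edgeR adjusted p 1.06e-04). cyp-34A2 had 5.52, 3.78 and 4.45 CPM in the control and 1.88, 1.80 and 1.74 CPM in the mutant (log2 fold change -1.32, SE 0.22, edgeR adjusted p 0.00301). cyp-32B1 changed by -1.63 (SE 0.27, edgeR adjusted p 0.00363) and cyp-34A4 by -0.90 (edgeR adjusted p 0.0110), the latter lost without control replicate B (adjusted p 0.0550). The 6 that fell thus include 3 genes of the cyp-34A subfamily, cyp-34A9 being the third. Their calls stayed between 5 and 6 in number whichever library was left out.

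Genes named dhs, alh, sodh or sdz were listed together, most of them short-chain or other dehydrogenase genes, though sdz is not a dehydrogenase name. The list gave 6 rises (13%, against 3.07% of all genes) and 1 fall (2.17%, against 2.57%) among 46 tested. Of the rises, 4 were among 30 dhs genes and 1 was among 12 alh genes. dhs-25, a short-chain dehydrogenase gene, stood at 71.2, 88.1 and 62.4 CPM in the control and 139, 137.9 and 129 CPM in the mutant (log2 fold change 0.87, SE 0.13, edgeR adjusted p 0.00126). The one that fell, sodh-1, an alcohol and sorbitol dehydrogenase-family gene, stood at 435, 271 and 408 CPM in the control and 95.2, 118 and 141 CPM in the mutant (log2 fold change -1.65, SE 0.20, edgeR adjusted p 0.00160). The groups of both genes lay apart and both calls held in all 6 leave-one-out fits. For sodh-1 the control lay above the other 9 libraries.

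Of 86 fatty acid genes tested 12 rose (14%, against 3.07% of all genes) and 4 fell (4.65%, against 2.57%). Those that rose include the desaturase gene fat-7 (0.93), the elongase genes elo-5 (0.80) and elo-6 (0.90) for branched-chain fatty acids, the acyl-CoA synthetase gene acs-1 (0.98), the acetyl-CoA carboxylase gene pod-2 (0.60) and the fatty acid synthase gene fasn-1 (0.48). acs-1 was read at 133, 199 and 141 CPM in the control and 315, 344 and 273 CPM in the mutant (SE 0.15, edgeR adjusted p 0.00309). fat-7 had 6.63, 8.71 and 7.26 CPM in the control and 16.24, 11.7 and 15.8 CPM in the mutant (SE 0.17, edgeR adjusted p 0.00540). Both genes separated the groups, and the calls of fat-7, elo-5 and acs-1 held in all 6 leave-one-out fits. The calls of elo-6, pod-2 and fasn-1 held in 3, 2 and 0 of them (adjusted p up to 0.101, 0.154 and 0.207). The other 6 were the enoyl-CoA hydratase-family gene ech-7 (0.97), the acyl-CoA synthetase-family gene acs-19 (0.49), the carnitine palmitoyltransferase-like gene cpt-5 (0.48), the acyltransferase gene dgat-2 (0.40), the lipase-like gene lipl-6 (1.38) and the lipid-binding protein gene lbp-8 (1.62), of which ech-7 alone held in all 6 leave-one-out fits (adjusted p up to 0.0658, 0.157, 0.136, 0.0721 and 0.0725 in the rest). The number of list members called higher was 7 without control replicate B, 5 without control replicate C, 6 without mutant replicate A and 6 without mutant replicate B.

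The 4 that fell were the lipase genes lipl-2 (-1.72) and lipl-3 (-1.48), the carnitine palmitoyltransferase gene cpt-1 (-0.98) and the acyl-CoA dehydrogenase gene acdh-6 (-0.68). cpt-1, whose product feeds fatty acids into mitochondria, had 111, 69.5 and 72.2 CPM in the control and 39.8, 42.7 and 45.2 CPM in the mutant (SE 0.16, edgeR adjusted p 0.00590). lipl-2 had 8.96, 4.36 and 6.74 CPM in the control and 1.95, 2.27 and 1.63 CPM in the mutant (SE 0.26, edgeR adjusted p 0.00189). The groups lay apart in both genes. The calls of lipl-2, lipl-3 and cpt-1 held in all 6 leave-one-out fits, and that of acdh-6 in 3 (adjusted p up to 0.110). icl-1, which encodes the glyoxylate cycle enzyme that lets animals turn fat into sugar, stood at 986, 605 and 698 CPM in the control and 358, 388 and 462 CPM in the mutant. It fell by 0.92 on the log2 scale (SE 0.18, edgeR adjusted p 0.0104), although not without mutant replicate A (adjusted p 0.0616), and was the 1 call among 34 glycolysis and TCA cycle genes. In lipl-2, lipl-3, cpt-1 and icl-1 the control lay above the other 9 libraries. None of the 19 vacuolar ATPase genes was called, although 18 changes were positive (median 0.24).

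Genes of the oxidative, hypoxia and metal response had 4 rises (20.0%, against 3.07% of all genes) and no fall among 20 tested, and these 4 calls held in all 14 alternatives. They were gst-4, the osmotic-stress glycerol phosphate dehydrogenase gene gpdh-1, the cysteine synthase-like gene cysl-2 and the nitrilase-family gene nit-1 (0.76). gpdh-1 was read at 10.7, 10.3 and 7.78 CPM in the control and 30.9, 21.8 and 27.6 CPM in the mutant (log2 fold change 1.49, SE 0.16, edgeR adjusted p 1.51e-04). cysl-2 had 65.5, 64.8 and 51.6 CPM in the control and 93.4, 111 and 121 CPM in the mutant (log2 fold change 0.84, SE 0.13, edgeR adjusted p 0.00178). Among 59 heat shock and other chaperone genes 1 was called, the small heat shock protein gene hsp-17 (0.49), and that call was lost without control replicate B and without mutant replicate A (adjusted p up to 0.0710). nit-1 overlaps ZK1058.9, gpdh-1 overlaps gadr-6 and cysl-2 overlaps vnut-1, each on the other strand.

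Of 28 CUB-like, dod and infection-response genes 4 rose (14.3%, against 3.07% of all genes) and 6 fell (21.4%, against 2.57%). The 28 include 10 dct genes, whose names do not place them in these groups. Of the calls, 1 rise and 2 falls were of dct genes. dod-24, which encodes a CUB-like protein of the intestine, had 31.5, 28.6 and 27.6 CPM in the control and 70.8, 69.5 and 77.1 CPM in the mutant (log2 fold change 1.31, SE 0.11, edgeR adjusted p 1.43e-05). irg-2, an infection-response gene, had 4.54, 4.11 and 4.82 CPM in the control and 1.052, 1.66 and 0.988 CPM in the mutant (log2 fold change -1.80, SE 0.24, edgeR adjusted p 8.27e-04). irg-1, another, changed by -1.03 and the thaumatin-like gene thn-1 by -0.76. The calls of irg-2, irg-1 and thn-1 held in all 6 leave-one-out fits. The number of list members called lower was 3 without control replicate B, 3 without mutant replicate A and 3 without mutant replicate B.

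pmk-1, which encodes the p38 MAP kinase of intestinal immunity, was read at 29.4, 35.5 and 37.6 CPM in the control and 20.9, 21.2 and 18.7 CPM in the mutant. It fell by 0.76 on the log2 scale (SE 0.12, edgeR adjusted p 0.00288) and was the 1 call among 22 insulin and stress regulators. T24B8.5, a ShK-like toxin gene used as a reporter of that kinase pathway, moved the other way, from 4.79, 4.44 and 3.41 CPM to 17.7, 13.3 and 17.6 CPM (log2 fold change 1.95, SE 0.18, edgeR adjusted p 3.57e-05). Both calls held in all 6 leave-one-out fits.

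Among antimicrobial-like peptides 3 rose (6.0%, against 3.07% of all genes) and 2 fell (4.0%, against 2.57%) of 50 tested. nlp-28, an epidermal peptide gene, had 23.9, 21.3 and 17 CPM in the control and 55.7, 40.0 and 38 CPM in the mutant (log2 fold change 1.11, SE 0.17, edgeR adjusted p 0.00295). The saposin-like gene spp-2 had 167, 99.4 and 155 CPM in the control and 62.8, 51.6 and 60.9 CPM in the mutant (log2 fold change -1.27, SE 0.18, edgeR adjusted p 0.00369), while spp-23, of the same family, rose by 1.02. The lysozyme gene lys-2 (0.67) and the aspartyl protease gene asp-14 (0.90) were among 5 rises (16.1%) and 1 fall (3.23%) in 31 intestinal proteases and lysozymes. C-type lectins gave 7 rises (7.53%, against 3.07% of all genes) and 2 falls (2.15%, against 2.57%) among 93 tested, among them clec-190 (1.25) and clec-209 (1.07). The call of clec-190 was lost without control replicate B (adjusted p 0.0697). clec-209 had the same counts as F56A4.2, so the 2 cannot be told apart. The calls of nlp-28, spp-2, spp-23, lys-2, asp-14 and clec-209 held in all 6 leave-one-out fits.

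The largest changes came from single genes. haf-6, which encodes a half-molecule ABC transporter, was read at 1.23, 0.987 and 1.56 CPM in the control and 36.1, 31.1 and 31.7 CPM in the mutant (log2 fold change 4.69). Another gene of that class, haf-3, had 64.4, 77.1 and 76.7 CPM in the control and 180, 155 and 149 CPM in the mutant (log2 fold change 1.15, SE 0.12, edgeR adjusted p 9.22e-05). Beyond the few largest, rises of oac-29 (2.11), an acyltransferase-family gene, F01D4.8 (2.65) and R57.2 (1.94) and falls of Y71F9AL.4 (-3.09), T26H5.9 (-2.09) and C27D9.2 (-1.71) held in all 6 leave-one-out fits. Y71F9AL.4 was read at 14.1, 15.9 and 16.9 CPM in the control and 1.65, 2.2 and 1.51 CPM in the mutant, where the mutant libraries were the lowest of the series (SE 0.18, edgeR adjusted p 1.89e-07). srw-85 had 0 counts in the control and 28, 70 and 40 in the mutant libraries, at least 25.9-fold higher against a floor of 3 counts over the group. F57A10.2 had 79 counts in the control and 0 in the mutant, at least 46.7-fold lower against the same floor.

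Lists of developmental timing and hormone signalling were small and shared members. Of 7 genes listed as let-7 targets 2 rose (28.6%, against 3.07% of all genes). Of 15 developmental timing genes 2 rose (13.3%). Of 8 genes in the pathway of dafachronic acid, a steroid, 2 rose, and none fell in any of these lists. The genes that rose were daf-12, a member of each list, hbl-1, in the target and timing lists, and daf-36, in the dafachronic acid list. daf-12, which encodes the nuclear receptor for the steroid dafachronic acid, rose by 1.51 on the log2 scale, and its call held in all 14 alternatives. hbl-1, a zinc-finger gene that holds back adult fates, rose by 1.00, a call lost in each of the 6 leave-one-out fits (adjusted p up to 0.117). daf-36, which encodes an oxygenase at the start of dafachronic acid synthesis, had 14.8, 16.36 and 12.2 CPM in the control and 25.33, 21.1 and 19.3 CPM in the mutant. It rose by 0.60 (SE 0.15, edgeR adjusted p 0.0286). The call was lost in 4 of the 6 leave-one-out fits (adjusted p up to 0.137). lin-41 stood at 46.3, 41.9 and 43.6 CPM in the control and 60.5, 52.2 and 48.8 CPM in the mutant, and did not pass the threshold (0.29, edgeR adjusted p 0.165). let-7 had 0 counts in every library, where the floor was 0.357 CPM in the shallowest one. It is a microRNA and not an mRNA, so footprints do not measure its level. lin-14 (0.23, edgeR adjusted p 0.393), lin-28 (0.12, edgeR adjusted p 0.739) and lin-29 (0.40, edgeR adjusted p 0.474) did not pass the threshold. None of 13 microRNA machinery genes, 18 genes of vulval induction and the Ras pathway, 20 of the Wnt and Notch pathways or 15 of the TGF-beta and body size pathway was called.

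Other large families were set beside the same shares over all genes. The nematode-specific peptide genes nspa to nspe gave 1 rise and 6 falls (11.5%, against 2.57% of all genes) among 52 tested, from 4 nspa and 2 nspb genes, and none of these falls was called without control replicate B, without mutant replicate A or without mutant replicate B, while 11 genes of the list were called lower without mutant replicate C. nspa-6 and nspa-7 had identical counts and changed by -0.60, and 8 of the 10 nspa genes had near-equal counts with another gene. Of 150 nuclear hormone receptor genes 3 fell (2.0%, against 2.57% of all genes), nhr-99 (-1.08), nhr-32 (-0.72) and nhr-35 (-0.53). Each of these calls was lost in 1 or more of the 6 leave-one-out fits (edgeR adjusted p up to 0.0641, 0.0730 and 0.0734). Of 147 F-box, MATH and BTB genes 1 rose (0.68%) and 2 fell (1.36%). Of 77 neuropeptide and insulin-like genes 3 rose (3.9%) and 1 fell (1.3%). The shares over all genes were 3.07% and 2.57%. fbxa-72, the F-box gene that rose, had 22.9, 22.5 and 21 CPM in the control and 41.9, 39.8 and 39.8 CPM in the mutant (log2 fold change 0.87, SE 0.11, edgeR adjusted p 3.77e-04).

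Lists of general cell machinery held few calls. Of 80 cytosolic ribosomal protein genes, 65 mitochondrial ribosomal protein genes, 31 translation factors, 32 tRNA synthetases and 32 proteasome subunits none was called, and the list medians lay between -0.01 and 0.10. Of 31 respiratory chain and ATP synthase genes 1 fell, the cytochrome c gene cyc-2.1 (-0.60), a change not called in 3 of the 6 leave-one-out fits (adjusted p up to 0.112). Of 38 splicing factors and RNA-binding protein genes 1 rose, tiar-2 (4.03), and its call held in all 14 alternatives. None of 27 body wall muscle, 20 neuron, 20 intestine and 14 somatic gonad markers was called either. Of 15 hypodermis markers 2 rose (13.3%, against 3.07% of all genes), dpy-7 and the phenylalanine hydroxylase gene pah-1, while the list median was -0.03. The dpy-7 call held in 2 of the 6 leave-one-out fits (edgeR adjusted p up to 0.162) and that of pah-1 in all 6. pah-1 was read at 49.1, 50.4 and 43.8 CPM in the control and 79.1, 75.8 and 75.8 CPM in the mutant (log2 fold change 0.69, SE 0.10, edgeR adjusted p 0.00160). Overlapping genes bear on some of the genes named: egg-1, puf-3, sym-1, fbn-1, nas-7, lon-3, acs-1, hsp-17, pah-1, haf-6 and C27D9.2 each overlap another tested gene on the other strand, and whether counting used the strand is not given in the sources used here.

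The levels of all 12 libraries show which strain of the pair stood apart for each called gene. Of the 395 genes called higher, the control lay below the other 9 libraries in 174 (44.1%) and the mutant above them in 184 (46.6%). Of the 331 called lower, the control lay above the others in 123 (37.2%) and the mutant below them in 140 (42.3%). Among genes not called, 89.5% had neither strain outside. Called genes were chosen for a gap between these strains, so their shares cannot be read against that of genes not called. The oocyte, furrow and precuticle rises belonged mostly to genes with the control outside and the col, abu and pqn falls mostly to genes with the mutant outside.

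**Figure D5:**
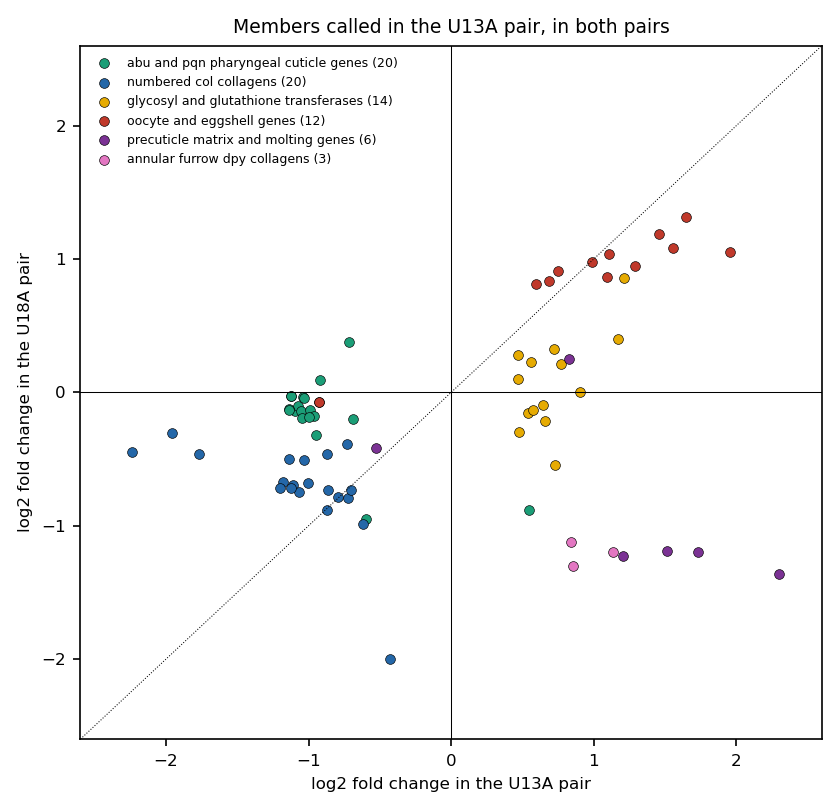
Log2 fold change in the U13A pair (horizontal) and in the U18A pair (vertical) of the genes of 6 lists that were called in the U13A pair, with the line of equal change. Oocyte genes other than pqn-74 are positive in both pairs, col genes are negative in both, and the furrow collagens and most precuticle genes are positive in the U13A pair and negative in the U18A pair.

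Whether a change in the U13A pair differed from that in the U18A pair was tested in 1 model over all 12 libraries, and 759 of 13597 genes differed (5.58%). Of the 726 genes called in the U13A pair, 147 were called in the same direction in the U18A pair and 98 in the opposite one. The share of all genes called in the U18A pair is not given here, so the 147 and 98 have no baseline. Of these 726 genes, 327 differed between the pairs (45.0%). Both tests used the same U13A libraries, so choosing called genes raises this share. It cannot be read against the 5.58% of all genes. Members called in the U13A pair whose change differed numbered 7 of 14 for the transferases (50.0%) and 8 of 16 for fatty acid genes (50.0%). Both shares lay near the 45.0% of all called genes. The counts were 7 of 7 for the dehydrogenase list, 1 of 12 for oocyte genes and 0 of 5 for astacins.

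By chromosome, the share of tested genes called was 8.93% on V, 7.29% on X, 5.92% on IV, 4.90% on II, 3.49% on III and 3.26% on I. Within 1 Mb on either side of lin-41, on chromosome I from 9334800 to 9342496 in WBcel235, the shares were 4.35% and 1.64%. Within 1 Mb of let-7, on chromosome X from 14743590 to 14745321, they were 8.91% and 5.38%. The strains may differ elsewhere in the genome, and the part of such differences in these calls was not tested.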

How the data were processed

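Footprint reads were counted per gene and deposited as raw counts, 1 table per pair of strains. Per the submitters' processing notes, cutadapt 1.9 and Bowtie2 2.3.4.3 were used and the build was WBcel235. How reads were assigned to genes (tool, annotation, strand, reads with several positions) is not given in the sources used here. The deposited counts of the U13A pair held 46711 rows, of which 28882 were 0 throughout and 21 joined several gene names (at most 0.07% of a library's counts).

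Genes passing edgeR's filterByExpr (12874) were scaled by TMM and tested with edgeR's quasi-likelihood test (edgeR 4.0.16, limma 3.58.1, R 4.3.3), with Benjamini-Hochberg adjustment and a threshold of 0.05. CPM are TMM-scaled, and fold changes are let7_U13A over control_for_U13A. Differences between the pairs were tested as an interaction over all 12 libraries. Alternatives included DESeq2 1.42.0 on the same counts. On simulated data made from these counts, with a log2 change of 1 in 200 genes, 90.9% of 198 changed genes were recovered and 4.26% of calls were false. For the test between the pairs, 68.3% of 199 were recovered and 1.45% of calls were false. Counts were drawn independently with a spread set by level alone. The simulation thus lacks variation shared by genes inside a group, as on the second axis above, and does not cover smaller changes.

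The replicate letters did not pair the libraries (correlations of same-letter deviations -0.03, 0.02 and -0.36), so the test has no replicate block. Gene positions came from the WBcel235 annotation, which 98.3% of tested genes matched. The gene lists and the rule for named genes (the largest non-overlapping calls among all genes, in each list and in each gene-name class) were chosen with earlier results of these data known. Other members are named to account for a list and were chosen after their values were seen. Floors (3 counts) cover counting error only.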

Additional observations from a re-analysis of the deposited data

Results flagged for a closer look

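The change in the U13A pair differed from the change in the U18A pair for 759 genes, by edgeR's interaction test over all 12 libraries (adjusted p under 0.05). Each difference given here is the log2 fold change in the U13A pair less that in the U18A pair, 3 libraries a group, and each is for a gene described above that was called in the U13A pair. The 2 pairs share no control libraries, and their backgrounds also differ in the lin-41 alleles and in the transgene maIs105, so background and let-7 allele cannot be told apart.

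In cuticle genes the difference was 1.97 for dpy-2, 2.16 for dpy-7, 2.33 for dpy-10 and 1.31 for lon-3. It was 3.66 for fbn-1, 2.94 for let-653, 2.71 for sym-1, 2.44 for noah-1 and 2.32 for mlt-4. Among the collagen genes that fell it was -1.79 for col-120, -1.65 for col-88 and -1.31 for col-60. It was -0.86 for pqn-74, 1.43 for pqn-47, 3.29 for ptr-10 and -0.57 for wrt-8.

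Among metabolic genes the difference was 0.90 for gst-4, 1.09 for cyp-14A5, -1.60 for cyp-32B1, 0.77 for dhs-25 and -1.74 for sodh-1. For lipid genes it was 0.93 for fat-7, 1.14 for acs-1, 1.12 for ech-7, 0.78 for dgat-2, 2.88 for lipl-6 and 2.06 for lbp-8. Those that fell had differences of -1.87 for lipl-2 and -0.84 for cpt-1. The remaining metabolic genes gave -0.67 for cyc-2.1, 1.22 for cysl-2 and 0.87 for pah-1.

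Defence genes gave 1.61 for dod-24, -2.08 for irg-2, -1.89 for irg-1, -1.09 for thn-1, -0.59 for pmk-1 and 1.97 for T24B8.5. Secreted peptides and enzymes gave -1.28 for spp-2, 1.25 for spp-23, 0.47 for lys-2, 1.00 for asp-14 and 1.32 for clec-209. Regulators gave 1.78 for daf-12, 1.72 for hbl-1, -1.33 for nhr-99, -0.57 for nhr-35 and 1.57 for fbxa-72. The value was -0.85 for nspa-6 and for nspa-7, whose counts are identical. The largest single changes gave 5.02 for haf-6, 4.04 for tiar-2, 1.07 for haf-3, 3.98 for oac-29, 3.68 for F01D4.8, 3.18 for R57.2, -3.08 for Y71F9AL.4, -2.77 for T26H5.9 and -1.42 for C27D9.2.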

How the results depend on the processing

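Of 123 genes whose change was recomputed in the 14 alternatives to the U13A comparison, 4 turned their sign, none of them called. With 1 library left out, dpy-3 ran from -0.502 to 0.295, myo-1 from -0.00659 to 0.0742, myo-2 from -0.0861 to 0.0491 and tnc-2 from -0.292 to 0.0536, and dpy-3 was -0.0676 with the replicate block. The counts below are compared with 726 genes changed, 395 higher and 331 lower. Fitting all 12 libraries together gave 1131, 621 and 510, and a minimum log2 change of 1 left 236. The replicate block, on letters that do not pair the libraries, gave 424, 232 and 192. DESeq2 called 723 genes. Leaving out each library in turn gave 295 to 849 changed genes, 169 to 550 higher and 126 to 399 lower, with the lowest counts without mutant replicate A. The count of 759 genes differing between the pairs ran from 542 to 775 in such fits and was 638 with the replicate block and 867 in DESeq2.

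Among lists, the precuticle rises numbered 8 in DESeq2. With the replicate block there were 10 col falls, 2 astacin falls, 8 transferase rises, 6 fatty acid rises and 1 nspa to nspe fall. All 12 libraries in 1 fit gave 29 transferase rises and 11 nspa to nspe falls, which numbered 10 in DESeq2 and 12 with no filter on counts. With 1 library left out, oocyte rises ran from 9 to 12, furrow rises from 0 to 3, precuticle rises from 3 to 6, col falls from 6 to 33, abu and pqn falls from 10 to 23 and astacin falls from 1 to 5. Transferase rises ran from 4 to 14, fatty acid rises from 5 to 9, P450 falls from 5 to 6, CUB-like, dod and infection-response falls from 3 to 7, and nspa to nspe falls from 0 to 11. The uncalled rise of col-50 passed the threshold in 4 alternatives, DESeq2 among them, and that of vit-3 in DESeq2. The cause of these shifts was not tested, and each fit without a library has fewer libraries. The genes least secured by depth are those under about 3 CPM.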
